A study of Mus musculus with 100 samples.

Results

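The 9 genes described here mark primitive red blood cells and their embryonic globins. They are the beta-like globins Hbb-bh1 and Hbb-y, the alpha-like globin Hba-x, the transcription factors Klf1, Tal1 and Nfe2, the haem enzyme Alas2, the red cell nuclear protein Hemgn and the erythropoietin receptor Epor. They were chosen by name, as 9 of 23109 gene-level entries, and their reads were followed in 37 RNA libraries among the 100 samples of the series. A further RNA sample, a double knockout at neural day 8, was not analysed here. The study asked what the methyltransferase activities of MLL3 and MLL4 (Kmt2c and Kmt2d), which act on lysine 4 of histone H3, do in early mouse development.

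The embryos were whole mouse embryos at the stages E8.5 and E9.5, with 3 KI and 3 control embryos at each stage. KI embryos were Mll3flox/KI;Mll4flox/KI;Sox2-Cre and controls were Mll3flox/KI;Mll4flox/+;Sox2-Cre, so both groups shared the Mll3 alleles, 1 floxed Mll4 allele and the Cre, and they differed in the other Mll4 allele. Controls are therefore not wild type. The labels do not spell out KI. Sox2-Cre acts in the epiblast, which gives rise to the embryo proper and the extraembryonic mesoderm, and a floxed allele is one that Cre can delete. Each embryo's title holds a number whose meaning is not stated, and embryos that share it are called a set here. At E8.5, sets A (title EmbryoE8_5_1378), B (EmbryoE8_5_1787) and C (EmbryoE8_5_1791) each hold 1 KI and 1 control embryo. At E9.5, set D (EmbryoE9_5_1114) holds 2 of each and set E (EmbryoE9_5_1508) holds 1 of each. Nothing beyond the labels shows that replicates came from separate litters or cultures, so p-values measure the spread between these samples.

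The cultured cells analysed here were Mll3-/-;Mll4flox/flox (flox) or Mll3-/-;Mll4KI/KI (KI, as clones 27 and 48), and all of them lack Mll3 by label. They were sequenced as embryonic stem cells at day 0, as embryoid bodies (EBs, aggregates kept in suspension without LIF) at days 4 and 10, and as neural cultures at days 8 and 16 of a retinoic acid protocol. Trophectoderm cultures at day 6 and extraembryonic endoderm cultures at day 5 were also sequenced. Flox had 1 library per day in the EB course and every other culture group analysed here had 2. Gene-level totals ran from 18.9 to 59.9 M reads (20.1 to 26.9 M in embryos), so 3 reads, the upper limit that a count of 0 allows, equalled 0.0501 to 0.1587 counts-per-million (CPM). Such limits cover counting error only. Kmt2c and Kmt2d transcripts were detected in every library, but a table of 1 value per transcript cannot show the alleles, so they do not test the genotype labels.

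Primitive red cells arise in the blood islands of the yolk sac from mesoderm that also gives rise to endothelium. They enter the circulation when the heart begins to beat, and they carry embryonic globins made by genes of the alpha and beta clusters. TAL1 is needed for the first blood cells of any kind. GATA1 and KLF1 then switch on globin, haem and membrane genes by binding GATA and CACCC motifs, and erythropoietin signals through EPOR to support the survival and growth of the precursors. In the mouse beta cluster, Hbb-bh1 is the earlier of the embryonic genes and Hbb-y gains over it as primitive cells mature.

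The sequences before the start of 5 of the genes are printed to show where the letters of these motifs lie. They are the 250 bases upstream of the annotated start, 5′ to 3′ on the gene's strand, from RefSeq in build GRCm38.p6 (the submitters' processing notes name mm9 for their own data). Capitals mark the GATA motif (AGATAA or AGATAG, also TGATAA or else TGATAG) and the letters CACCC, on either strand. The 5 windows are chr7:103853208-103853457 (minus strand) for Hbb-y, chr11:32276350-32276599 (plus) for Hba-x, chr8:84901732-84901981 (plus) for Klf1, chr4:46404184-46404433 (minus) for Hemgn and chrX:150547167-150547416 (plus) for Alas2.
Hbb-y: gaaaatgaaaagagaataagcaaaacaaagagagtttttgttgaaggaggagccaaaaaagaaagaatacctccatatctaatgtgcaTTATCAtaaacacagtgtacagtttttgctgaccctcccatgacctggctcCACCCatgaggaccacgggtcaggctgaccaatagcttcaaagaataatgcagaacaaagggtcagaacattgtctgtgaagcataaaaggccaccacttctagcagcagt
Hba-x: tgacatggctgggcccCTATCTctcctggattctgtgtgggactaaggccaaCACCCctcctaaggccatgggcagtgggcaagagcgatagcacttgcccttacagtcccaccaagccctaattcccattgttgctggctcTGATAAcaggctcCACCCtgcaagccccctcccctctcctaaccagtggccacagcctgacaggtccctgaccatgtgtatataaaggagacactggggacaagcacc
Klf1: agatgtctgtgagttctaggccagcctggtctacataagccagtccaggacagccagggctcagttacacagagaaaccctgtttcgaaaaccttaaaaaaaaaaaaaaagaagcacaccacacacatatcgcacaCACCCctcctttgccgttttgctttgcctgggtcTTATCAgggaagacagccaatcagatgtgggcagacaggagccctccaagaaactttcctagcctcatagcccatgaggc
Hemgn: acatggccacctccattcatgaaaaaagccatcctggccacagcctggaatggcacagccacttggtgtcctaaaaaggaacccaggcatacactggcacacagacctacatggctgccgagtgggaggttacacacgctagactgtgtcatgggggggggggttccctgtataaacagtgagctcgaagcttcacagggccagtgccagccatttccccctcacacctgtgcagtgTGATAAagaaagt
Alas2: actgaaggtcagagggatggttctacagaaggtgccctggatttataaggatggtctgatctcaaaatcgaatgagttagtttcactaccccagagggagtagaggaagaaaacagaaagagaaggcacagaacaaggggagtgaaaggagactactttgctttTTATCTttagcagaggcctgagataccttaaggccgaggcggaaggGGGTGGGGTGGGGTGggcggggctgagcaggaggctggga

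Of the 9 genes, 7 had upstream windows in the table used (8 windows, since Tal1 has 2 starts), and Hbb-bh1 and Nfe2 did not. A GATA motif was found in all 7 genes (in 1 of the 2 windows of Tal1), against 26.5% of 32851 promoter windows of the same length. Its first base lay 162 bases before the start in Hbb-y, 80 in Klf1, 86 in Alas2 and 13 in Hemgn, and Hba-x had copies at 234 and 108. CACCC was found in 6 of the 7, against 52% of all windows, and Hemgn was the one without it. Alas2 had 3 copies within 40 bases of its start, all on the opposite strand. The E-box CANNTG, a general form of the letters TAL1 binds, was found in 4 of the 7 (66.2% of all windows), and TGAGTCA, letters bound by the NFE2 complex, in none (4.46%). A match describes letters and not a bound site.

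At E8.5, 8 of the 9 genes had less RNA in every KI embryo than in any control embryo, a separation seen in 12.6% of all 15436 genes tested. Levels are CPM. Within a set the control held 2.81 to 13.5 times as much globin and Alas2 RNA as the KI embryo. Hemgn was almost undetected in KI, and Tal1 overlapped. In whole embryos, fewer cells of a type and less RNA per cell cannot be told apart.

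**Figure D1:**
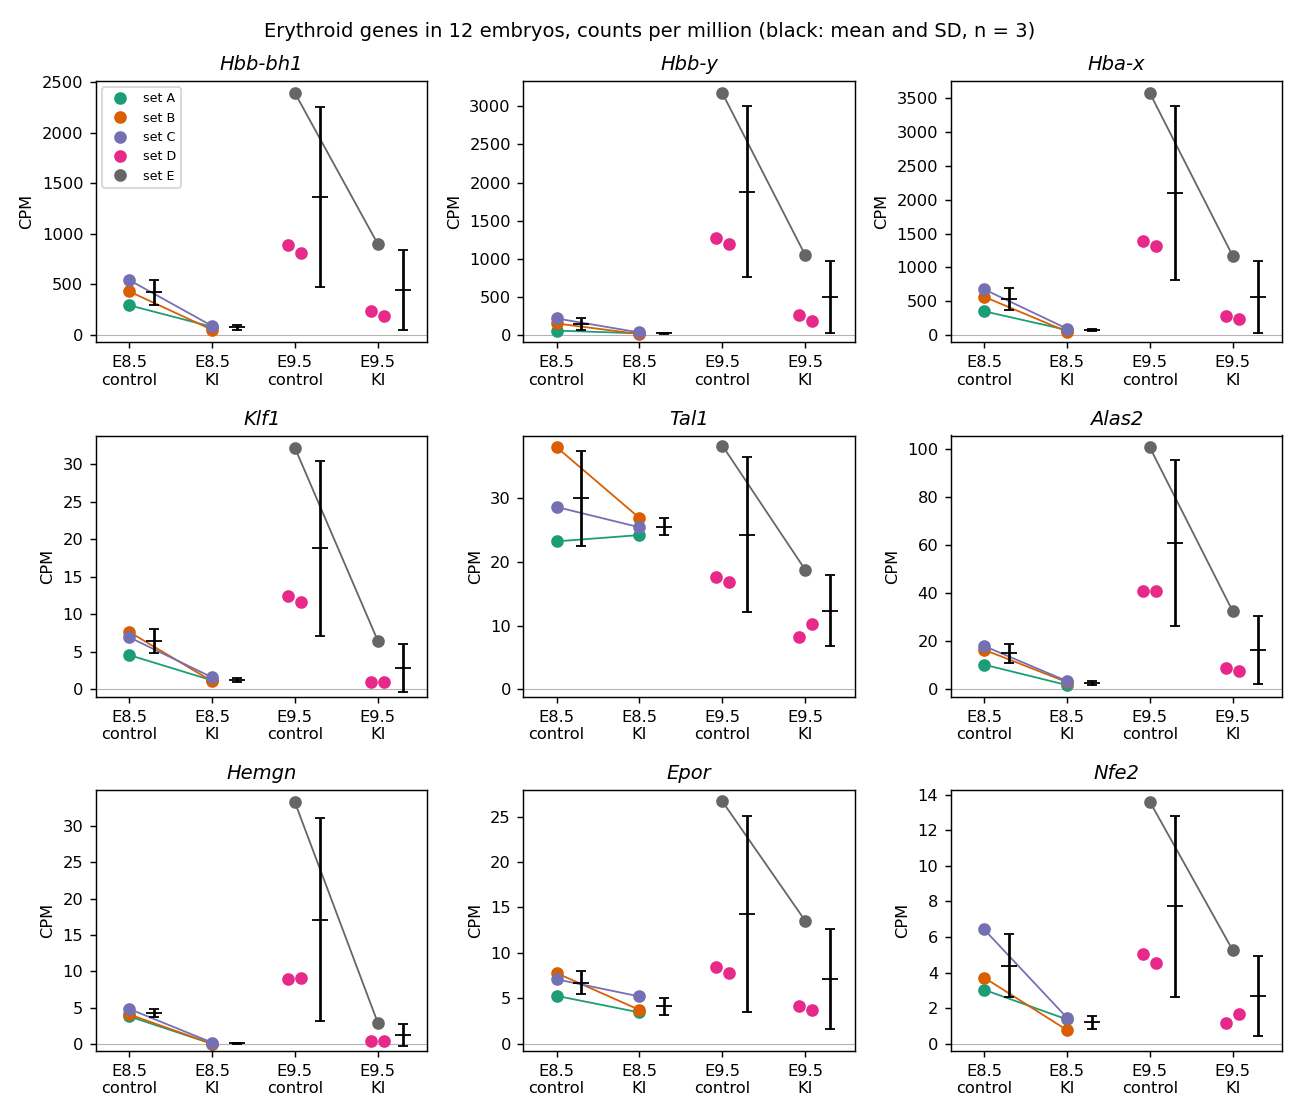
Read level of each of the 9 genes in every embryo (vertical axis, CPM, from 0), by stage and genotype, coloured by set. Black marks give the mean ± SD of 3 embryos. Thin lines join KI and control embryos of a set where each group has 1. The KI embryos lie below all controls at E8.5 in every panel except Tal1, and the embryos of set E are the highest of their group at E9.5.

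Hba-x, the embryonic zeta-globin of the alpha cluster, stood at 350, 565 and 675 CPM in the controls of sets A, B and C, and at 72.6, 49.4 and 92.3 CPM in the KI embryos of the same sets. Hbb-bh1 stood at 293, 430 and 543 CPM in controls and at 79.8, 50.4 and 88.8 CPM in KI. The control of set A was the lowest control for all 3 globins, and the KI embryo of set B was the lowest KI embryo. Hbb-y, the other embryonic beta-like globin, stood at 56.1, 149 and 216 CPM in controls and 20.0, 11.0 and 31.2 CPM in KI, the widest of the 3 globins as a ratio of highest to lowest. Within a set the control exceeded the KI embryo by 4.82, 11.4 and 7.32 times for Hba-x, by 3.67, 8.54 and 6.11 times for Hbb-bh1 and by 2.81, 13.5 and 6.92 times for Hbb-y.

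Alas2 encodes the first enzyme of haem synthesis in red cells. Its controls held 10.3, 16.4 and 18 CPM and its KI embryos 1.77, 3.00 and 3.43 CPM, which gave nearly equal ratios of 5.80, 5.48 and 5.26 within the sets. Its value rests on 1 of its 2 transcripts, which held 50.4% of their reads. Hemgn, a nuclear protein of red cell precursors, held 3.78, 4.06 and 4.81 CPM in controls, 0 reads in the KI embryos of sets A and B, and 4 reads (0.178 CPM) in the KI embryo of set C. Controls were at least 28.5-fold higher in set A and at least 29.8-fold higher in set B (against the floor of 3 reads in that library), and 27 times higher in set C. The Hemgn groups were therefore far apart in all 3 sets.

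Among the transcription factors, Klf1, the activator of adult and embryonic beta-like globin genes, held 4.58, 7.67 and 6.96 CPM in controls and 1.19, 1.09 and 1.60 CPM in KI. Nfe2, the haematopoietic subunit of a dimer that binds globin enhancers, held 3.04, 3.72 and 6.43 CPM in controls and 1.37, 0.773 and 1.47 CPM in KI. Both were 2.22 to 7.03 times higher in the control within a set. Tal1 showed no such gap: its controls held 23.2, 38.0 and 28.6 CPM and its KI embryos 24.2, 26.9 and 25.4 CPM, all inside the control range. Tal1 is also made by endothelial cells and some neurons. Epor held 5.28, 7.78 and 7.10 CPM in controls and 3.45, 3.73 and 5.20 CPM in KI, with the highest KI embryo just under the lowest control.

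Genes were tested in 1 edgeR quasi-likelihood fit of the 12 embryos, with Benjamini-Hochberg adjustment over all genes, and genes are termed called where their adjusted p lay under 0.05. By that test 1 of the 9 genes was called at E8.5, against 5.46% of all genes (1.83% lower in KI). It was Hemgn, at -6.02 on the log2 scale (SE 1.42, adjusted p = 0.0485), and 7 of the 9 had an unadjusted p under 0.05. The fold changes of all 9 were negative, with a median of -2.45 against -0.01 over all genes. Without any 1 of the 6 E8.5 embryos the adjusted p of Hemgn was 0.0842 to 0.159, so that call rests on each of them.

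The E8.5 embryos of a set deviated together from their group means, and with the set as a block 8 of the 9 genes were called, all of them lower in KI (8.45% of all genes, 3.49% lower). The blocked log2 fold changes were -2.52 for Hbb-bh1 (SE 0.286, edgeR adjusted p = 0.00829, 0.0886 without the block), -2.67 for Hbb-y (SE 0.490, 0.0363 and 0.124) and -2.88 for Hba-x (SE 0.307, 0.00683 and 0.0667). The zeta-globin and both beta-like globins thus all passed the test. Blocked changes were -2.45 for Alas2 (SE 0.156, adjusted p = 1.09e-07 with and 0.105 without the block), -2.29 for Klf1 (SE 0.268, 4.96e-05 and 0.156) and -1.84 for Nfe2 (SE 0.280, 0.000471 and 0.148). Epor had the smallest called change, -0.70 (SE 0.177, adjusted p = 0.0192 with and 0.626 without the block). Hemgn had the largest, -6.05 (SE 0.501, 1.34e-06), though a fitted change against so few reads depends on the prior count. Tal1 was not called either way (-0.23, SE 0.394, adjusted p = 0.815 without the block and 0.315 with it).

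At E9.5 the means of all 9 genes were again lower in KI embryos, at a stage when more genes of the whole table were called. Hba-x, Hbb-y, Klf1, Alas2 and Hemgn had every KI embryo below every control (5 of 9, against 21.4% of all genes). Embryos of set E carried more of these RNAs than embryos of set D in both genotypes. Differences between genotypes were therefore also taken within a set, where the control was higher for all 9 genes in both.

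Hba-x held 1385 and 1322 CPM in the controls of set D and 3581 CPM in that of set E, against 274 and 235 CPM and 1169 CPM in KI. Hbb-y held 1272, 1196 and 3175 CPM in controls and 257, 187 and 1046 CPM in KI in the same order. The KI embryo of set E thus came close to the controls of set D for both. Hbb-bh1 held 891, 806 and 2391 CPM in controls and 236, 189 and 899 CPM in KI, where the KI embryo of set E lay just above both controls of set D. Within set D and within set E, the mean control exceeded KI by 5.32 and 3.06 times for Hba-x, by 5.56 and 3.03 times for Hbb-y and by 3.99 and 2.66 times for Hbb-bh1.

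Klf1 held 12.5, 11.7 and 32.2 CPM in controls and 1.04, 0.944 and 6.50 CPM in KI, 12.2 times apart within set D and 4.96 times within set E. Hemgn held 8.93, 9.13 and 33.3 CPM in controls and 0.331, 0.343 and 2.92 CPM in KI, 26.8 and 11.4 times apart. These were the widest gaps among the 9 genes within each set. Alas2 held 40.9, 40.7 and 100.5 CPM in controls and 8.82, 7.68 and 32.4 CPM in KI, which is 4.95 and 3.10 times apart. Nfe2 held 5.04, 4.53 and 13.6 CPM in controls and 1.16, 1.67 and 5.26 CPM in KI. For Nfe2 the KI embryo of set E exceeded both controls of set D, so the groups overlapped.

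The gaps of the last pair were the smallest. Tal1 held 17.6, 16.8 and 38.2 CPM in controls and 8.16, 10.2 and 18.7 CPM in KI, 1.88 times apart within set D and 2.04 times within set E. Epor held 8.42, 7.76 and 26.7 CPM in controls and 4.18, 3.73 and 13.5 CPM in KI, 2.04 and 1.97 times apart. In both genes the KI embryo of set E lay above both controls of set D.

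By the edgeR test 2 of the 9 genes were called at E9.5, against 29.5% of all genes (14.9% lower in KI), and 8 of 9 had an unadjusted p under 0.05. Klf1 fell by 2.74 on the log2 scale (SE 0.744, edgeR adjusted p = 0.0244) and Hemgn by 3.85 (SE 0.902, adjusted p = 0.0131). Outside those, fitted log2 changes were -1.93 for Hbb-y (SE 0.814, adjusted p = 0.114), -1.92 for Hba-x (SE 0.708, 0.0772), -1.90 for Alas2 (SE 0.621, 0.0508) and -1.63 for Hbb-bh1 (SE 0.686, 0.113). Nfe2 had -1.52 (SE 0.609, 0.0876), Epor -1.0 (SE 0.615, 0.263) and Tal1 -0.98 (SE 0.408, 0.109). The median of the 9 was -1.90, against 0.01 over all genes. With the set as a block all 9 were called lower, where 5284 of 15436 genes in all were called, 2677 of them lower. The edgeR adjusted p with that block ran from 2.27e-09 for Alas2 to 0.0155 for Hbb-y (0.00387 for Hba-x). The deviations of KI and control embryos of a set correlated from -0.004 to 0.216 here and from 0.181 to 0.399 at E8.5.

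In a fit of the 6 embryos of this stage alone neither Klf1 (adjusted p = 0.114) nor Hemgn (0.0751) was called. The calls also depended on single libraries. Without the KI embryo of set E, all 9 genes were called lower (3541 of 15697 genes in all were called, 1797 of them lower), with adjusted p from edgeR of 0.0297 for Hbb-y and 0.0102 for Hba-x. Klf1 was no longer called without either KI embryo of set D (adjusted p = 0.0634 and 0.0705) or without the control of set E (0.0636). In the 4 embryos of set D alone, a choice made after seeing the data, 8 of 9 were called (3358 of 15628 genes in all, 1705 of them lower), and Hbb-y was just outside (log2 fold change -2.47, adjusted p = 0.0513). There Klf1 stood at -3.60 (adjusted p = 5.21e-07), Hemgn at -4.72 (2.1e-06), Alas2 at -2.30 (7.56e-05) and Tal1 at -0.91 (0.00326).

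**Figure D2:**
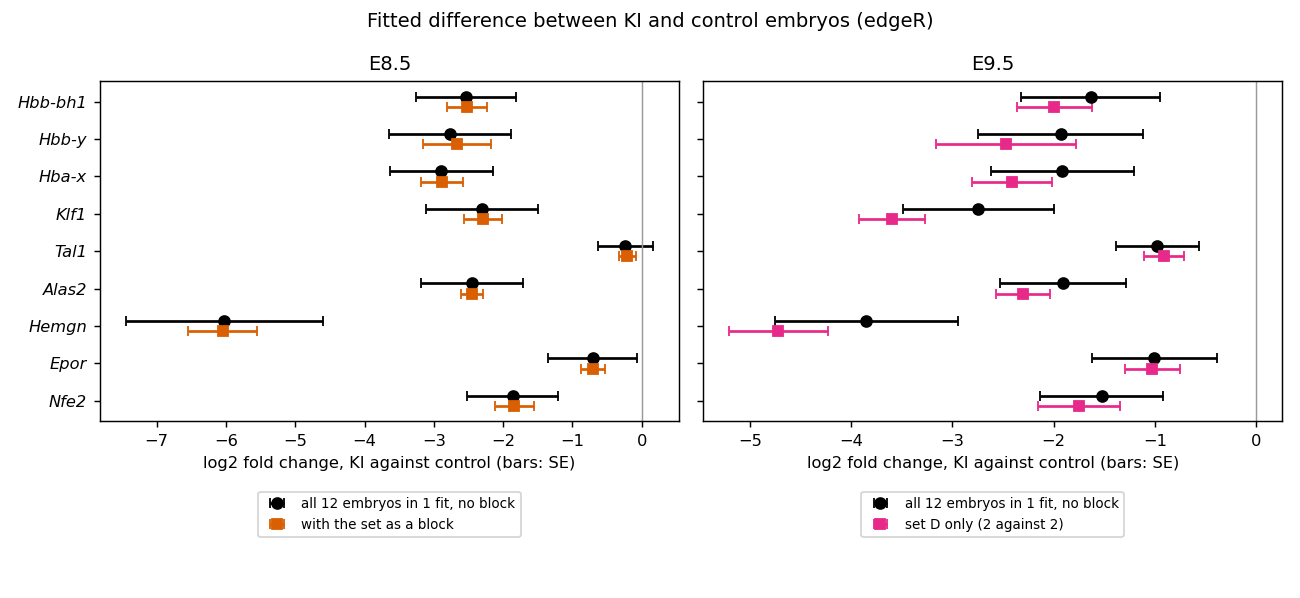
Log2 fold change of KI against control for the 9 genes (horizontal axis, edgeR estimate, bars ± SE), at E8.5 without and with the set as a block and at E9.5 in all embryos and in the 4 embryos of set D. All points lie below 0, Hemgn is the farthest at -6.02 and -3.85 without a block, and Tal1 is the nearest to 0 at -0.23 and -0.98.

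Between the stages Hbb-y RNA rose in both genotypes, and Hba-x, Hbb-bh1 and Alas2 passed the test in KI embryos. In control embryos the means of those 3 were also higher at E9.5, from 529.9 to 2096 CPM for Hba-x, from 422 to 1363 CPM for Hbb-bh1 and from 14.9 to 60.7 CPM for Alas2, without passing it. In controls 1 of the 9 genes was called, against 24.2% of all genes (12.2% higher at E9.5). It was Hbb-y, from a mean of 140 ± 80.2 CPM to 1881 ± 1121 CPM (SD, n = 3 and 3), a log2 change of 3.68 with an SE of 0.877 (edgeR adjusted p = 0.0176). The call was lost without the E8.5 control of set A (adjusted p = 0.0567) or of set B (0.0573). In KI embryos 4 of the 9 were called higher (32.5% of all genes, 15.9% higher). Hbb-y rose from 20.7 ± 10.1 to 497 ± 477 CPM (4.51, SE 0.933, adjusted p = 0.0069), Hba-x by 2.90 (SE 0.742, 0.0184), Hbb-bh1 by 2.53 (SE 0.716, 0.0276) and Alas2 by 2.50 (SE 0.731, 0.0311). Of these, Hbb-y kept its call without any 1 embryo, while the calls of Hbb-bh1 and Alas2 were lost without any 1 of the 3 E8.5 KI embryos or the KI embryo of set E (adjusted p = 0.0648 to 0.107). That of Hba-x was lost without the E8.5 KI embryo of set A (0.0622) or set B (0.067).

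Group means set the other genes beside this. Klf1 went from 6.40 ± 1.62 to 18.8 ± 11.6 CPM in controls and from 1.30 ± 0.270 to 2.83 ± 3.18 CPM in KI, and Hemgn from 4.22 ± 0.533 to 17.1 ± 14 CPM and from 0.0593 ± 0.103 to 1.20 ± 1.49 CPM. Tal1 went the other way, from 29.9 ± 7.47 to 24.2 ± 12.1 CPM in controls and from 25.5 ± 1.34 to 12.4 ± 5.62 CPM in KI. None of these passed the test between stages. Whether the KI effect itself differed between stages was tested as an interaction, and edgeR called 0 of the 9 (0 at an unadjusted p under 0.05, 0 by DESeq2), against 6.63% of all genes. With the set as a block it called Tal1 (-0.75, SE 0.169, adjusted p = 0.00828), 1 of 9 against 1547 of all 15436 genes.

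Levels of different genes can be set side by side per length of transcript, as RPKM (reads per kilobase of transcript and per M reads). In E8.5 controls the order was Hba-x at 679 RPKM, Hbb-bh1 at 532 and Hbb-y at 174, with Alas2 at 5.79, Tal1 at 5.53, Klf1 at 3.21, Epor at 2.83, Nfe2 at 2.03 and Hemgn at 1.41. In E9.5 controls Hba-x stood at 2684 RPKM, Hbb-y at 2336 and Hbb-bh1 at 1715, followed by Alas2 at 23.6, Klf1 at 9.41, Epor at 5.99, Hemgn at 5.68, Tal1 at 4.48 and Nfe2 at 3.56. Most neighbours in these orders lay closer than the larger of their SDs over 3 embryos. The steps wider than that were from Hbb-bh1 to Hbb-y, from Hbb-y to Alas2 and from Tal1 to Klf1 at E8.5, and from Hbb-bh1 to Alas2 and from Alas2 to Klf1 at E9.5. Hbb-y thus passed Hbb-bh1 in mean level between the stages.

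The share of Hbb-y among these beta-like globins separated the stages in every embryo. Hbb-y made up 15.9%, 25.5% and 28.1% of the summed RPKM of Hbb-y and Hbb-bh1 in E8.5 controls (sets A, B and C) and 19.8%, 17.8% and 25.7% in KI. At E9.5 it made up 58.5%, 59.4% and 56.7% in controls and 51.8%, 49.3% and 53.4% in KI, with set E last. The E8.5 groups overlapped, with means of 23.2% ± 6.46 and 21.1% ± 4.13 (SD, n = 3 and 3, difference -2.08 points, two-sided exact permutation p = 0.8). At E9.5 every KI share lay below every control share, 51.5% ± 2.07 against 58.2% ± 1.38 (difference -6.68 points, exact permutation p = 0.1, adjusted over both stages 0.2). The smallest p that 3 against 3 allows is 0.1, so neither stage could pass 0.05.

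**Figure D3:**
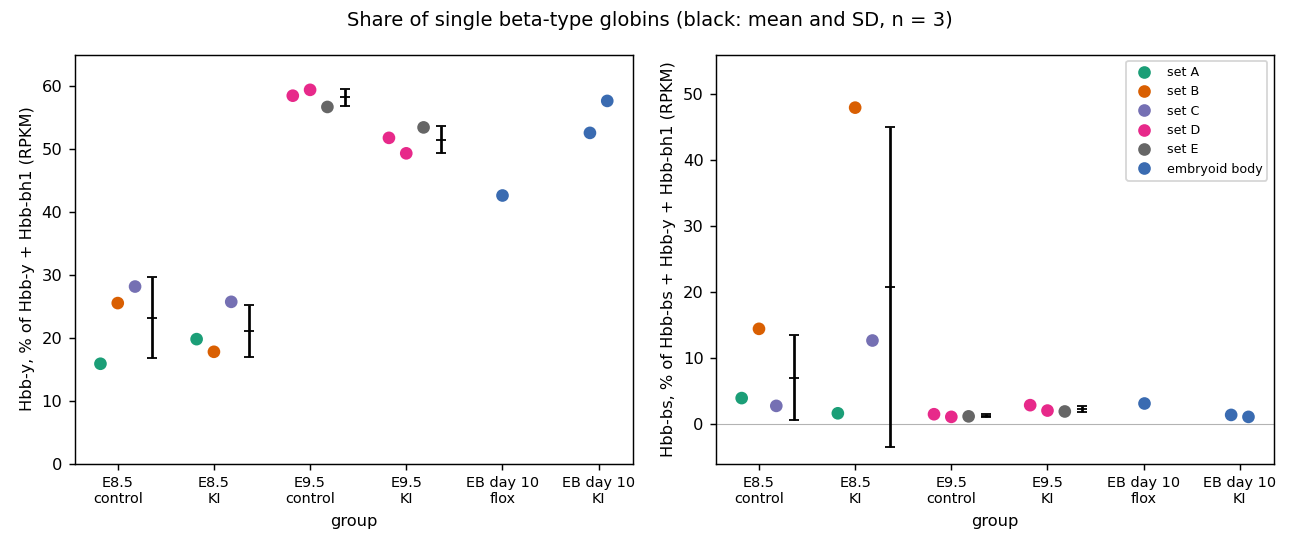
Share of Hbb-y in the sum of Hbb-y and Hbb-bh1, and of the adult gene Hbb-bs in the sum of Hbb-bs, Hbb-y and Hbb-bh1 (vertical axes, percent of summed RPKM), in every embryo and in the EB libraries of day 10. The Hbb-y share lies between 15.9% and 28.1% at E8.5 and between 49.3% and 59.4% at E9.5, and the embryos of set B stand highest in the Hbb-bs share at E8.5.

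The adult beta globin Hbb-bs took its highest E8.5 shares in the embryos of set B, though the KI embryo of set C came close to the control of set B. It took 14.4% of the 3 beta-like genes in the control of set B and 48% in the KI embryo, against 2.75% and 3.93% in the other controls and 1.63% and 12.7% in the other KI embryos. At E9.5 it took 1.09% to 1.49% in controls and 1.90% to 2.86% in KI. Hbb-bs, Hbb-bt and Hbb-b2 are near-identical and can share reads, so their split is uncertain. What part adult blood has in these values was not tested. Leaving out both embryos of set B (a choice made after seeing the data) left 0 of the 9 genes called at E8.5 without a block, where 645 of 15661 genes in all were called, 152 of them lower. The changes themselves were about as large on the 4 remaining embryos, with log2 fold changes of -5.52 for Hemgn, -2.64 for Hba-x, -2.44 for Alas2 and -2.31 for Hbb-bh1, while the SE was wider (1.01 against 0.742 for Hba-x).

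Ratios within an embryo compare the other genes with Hba-x, again in RPKM. Klf1 stood at 4.82 ± 0.692 per 1000 of Hba-x in E8.5 controls and 7.29 ± 1.19 in KI (SD, n = 3 and 3), and at 3.50 ± 0.0415 in E9.5 controls and 1.74 ± 0.377 in KI. The E9.5 control ratio hardly varied although Hba-x itself ran from 1322 to 3581 CPM in those embryos. Tal1 stood at 8.45 per 1000 of Hba-x in E8.5 controls and 55.4 in KI, and at 1.74 and 4.29 at E9.5. These ratios were not tested.

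Over the 12 embryos the level (log2 of CPM + 0.5) of Hbb-bh1 followed that of Hba-x most closely, with a Pearson r of 0.998. Alas2 followed with 0.987, Hbb-y with 0.953, Hemgn with 0.941, Nfe2 with 0.927, Klf1 with 0.91 and Epor with 0.864, while Tal1 had 0.114. The embryos share stage and genotype, so these values are a description. Outside the 9, the genes most like their mean, among 13810 genes of at least 1 CPM, were Rhag (0.992), Kel (0.991), Ermap (0.988), Ank1 (0.987) and Cited4 (0.983). Rhag, Kel and Ermap encode blood group proteins of the red cell surface, and Ank1 the ankyrin of its skeleton.

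Other genes of the red cell were counted from lists drawn up with earlier results of these data known. At E8.5, 1.83% of all genes were called lower without the block and 3.49% with it, which are the shares to set beside the counts of this stage. The 14 tested genes of the red cell membrane had a median log2 fold change of -2.83. Only Epb41, the skeleton protein 4.1 (-0.25, SE 0.0592, adjusted p = 0.0156), was called lower without a block, and 10 of 14 were with it. Of 13 haem synthesis genes 0 were called without the block and 4 lower with it (median -0.29), and of 10 further red cell genes 0 and 5 (median -0.84). Of 6 iron uptake genes 1 was called lower (3 with the block), the transferrin receptor Tfrc (-0.46, SE 0.0879, adjusted p = 0.00417). The 8 other globins had a median of -1.81, with 0 called without and 3 with the block, and copies of adult globins share reads.

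At E9.5, when 14.9% of all genes were called lower, 8 of 13 haem synthesis genes were (median -0.69), led by the mitochondrial iron carrier Slc25a37 (-1.45, adjusted p = 0.0271) and the enzymes Alad (-0.90, adjusted p = 2.9e-05) and Uros (-0.82, adjusted p = 0.00487). Of 14 membrane genes 6 were called lower (median -2.02), among them Epb42 (-3.43, adjusted p = 0.0181), which joins skeleton and membrane, and the blood group genes Kel (-2.72, adjusted p = 0.0353) and Icam4 (-2.27, adjusted p = 0.0138). Of 6 iron uptake genes 2 were lower, the iron transporter Slc11a2 (-0.65) and Tfrc (-0.44), and of 10 further red cell genes 5, led by Cldn13 (-5.06), Trim10 (-3.54) and Bpgm (-1.39), which makes the regulator of oxygen release. Of the 8 other globins 0 were called (median -1.16). With the set as a block 11 of 13 haem, 14 of 14 membrane and 4 of 6 iron uptake genes were lower. So were 9 of 10 further red cell genes and 3 of 8 other globins, where 2677 of 15436 genes in all were.

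The regulators did not move as 1 block. Of 13 erythroid transcription factors and partners 0 were called at E8.5 (median -0.01, 1.83% of all genes lower), and with the set as a block 2 were lower (3.49% of all genes). These 2 were Gata1 (-2.30, adjusted p = 0.00239 with the block, 0.187 without) and Gfi1b (-2.49, adjusted p = 0.0105 and 0.126), both named after their values were seen. Gata1, the master regulator of red cell genes, held 3.63, 6.44 and 8.05 CPM in E8.5 controls and 1.86, 0.455 and 1.38 CPM in KI. Gata2, Lmo2 and Runx1, which act with Tal1 from the start of blood formation, had E8.5 log2 fold changes of 0.10 (adjusted p = 0.772), -0.20 (0.494) and -0.28 (0.752). They too were named after their values were seen. At E9.5, 2 of the 13 were called lower, a share close to the 14.9% of all genes. They were Myb (-1.27, adjusted p = 0.00974) and the Tal1 relative Lyl1 (-0.82, adjusted p = 0.0222). Sox6, a repressor of Hbb-y, was higher (0.51, adjusted p = 0.0103).

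Of 9 genes of erythropoietin and KIT signalling, the stem cell factor receptor Kit was higher in KI at both stages, 71.9 ± 2.97 against 51.6 ± 1.55 CPM at E8.5 (0.48, adjusted p = 0.000729) and 62.8 ± 5.13 against 32.8 ± 1.45 CPM at E9.5 (0.93, adjusted p = 6.75e-08; SD, n = 3 and 3). Kit is also made by germ cells and pigment cells. At E9.5 Stat5b was higher as well (0.30, adjusted p = 0.0497). That made 1 of 9 genes called higher at E8.5, against 3.63% of all genes, and 2 of 9 at E9.5, against 14.6%.

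Markers of other cells moved in the same embryos. Of 12 endothelial genes 6 were called higher in KI at E8.5 (3.63% of all genes were, list median 0.51), led by Cldn5 (1.14), Pecam1 (1.09) and Sox18 (0.91), and 5 at E9.5 (14.6% of all genes, list median 0.47), led by Etv2 (1.45), Flt1 (0.83) and Tek (0.57). Their summed level was 391 to 470 CPM in E8.5 controls against 527 to 721 in KI, and 408 to 446 against 526 to 581 at E9.5. Heart markers summed to 692 to 1126 CPM in controls and 1005 to 1706 in KI at E8.5, and to 386 to 511 and 942 to 1798 at E9.5. Neural markers summed to 276 to 309.8 CPM in controls and 227 to 244 in KI at E8.5 (2 of 7 called lower, 1.83% of all genes), and to 549 to 741 and 243 to 288 at E9.5 (7 of 7, 14.9% of all genes). Primitive endoderm markers were called higher in KI in 3 of 7 at E8.5 and 5 of 7 at E9.5, trophectoderm markers in 1 of 7 and 4 of 7, and heart markers in 0 of 6 and 6 of 6. The part of this tissue makeup in the lower red cell genes was not tested.

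Yolk sac endoderm markers were summed as well, since blood islands lie in that membrane. All 10 had reads in every embryo group. Their sum was 670, 117 and 305 CPM in the E8.5 controls of sets A, B and C and 519, 50.0 and 153 CPM in the KI embryos, so controls were higher within each set while the groups overlapped. At E9.5 the order was opposite, 35.7 to 45.6 CPM in controls and 73.5 to 271 CPM in KI. Lower globin RNA in KI went with a lower sum of these markers within each set at E8.5 and with a higher sum at E9.5. The part of yolk sac tissue in the globin levels was not tested. Of the 10 genes 0 were called at either stage by edgeR without a block (medians -0.68 and 2.97). With the set as a block 0 were called at E8.5 and 5 were higher in KI at E9.5, where 2607 of 15436 genes in all were higher.

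Megakaryocyte markers, of the lineage that shares a precursor with red cells, summed to 8.11 to 13.5 CPM in E8.5 controls and 13.4 to 17.1 CPM in KI, with 0 of 5 called. At E9.5 they summed to 17.8 to 36.8 CPM in controls and 10.0 to 11.9 CPM in KI, with 3 of 5 called lower (14.9% of all genes), Pf4 (-3.6), Ppbp (-3.43) and Gp1bb (-0.88). Of 3 tested macrophage markers 1, Mrc1, was called higher in KI at E8.5 (1.53) and at E9.5 (2.23), against 3.63% and 14.6% of all genes. The medians of the 3 were -0.56 at E8.5 and 0.38 at E9.5. The 7 markers of the list summed to at most 9.15 CPM in any embryo.

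In the EB course the globin genes came on between days 4 and 10 in both genotypes. Globin RNA stood at or under 0.411 CPM on days 0 and 4 and lay between 81.9 and 180 CPM on day 10. Hba-x then held 180 CPM in flox, 107 CPM in KI clone 27 and 81.9 CPM in clone 48. Hbb-bh1 held 164.6, 92.7 and 101.5 CPM and Hbb-y 124, 104 and 140 CPM in the same order. Flox was the highest of the 3 libraries for Hba-x and Hbb-bh1 and lay between the clones for Hbb-y, whose share of both beta-like globins was 42.7% in flox and 52.6% and 57.6% in KI.

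Of the other genes, Alas2 held 14.7 CPM in flox and 9.97 and 7.83 CPM in clones 27 and 48, Tal1 9.23, 6.90 and 6.50 CPM, Epor 6.79, 4.70 and 5.12 CPM and Nfe2 2.95, 3.02 and 2.37 CPM. Klf1 and Hemgn stayed under 1 CPM in all 3 libraries, with Klf1 at 0.427, 0.562 and 0.458 CPM and Hemgn at 0.543, 0.307 and 0.0417 CPM. With 1 flox library a day there is no test of a single day. Of the 7 genes with at least 1 CPM, 0 were at least 2-fold lower in both clones at day 10 (3.91% of all genes were).

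Earlier days differed for single genes. At day 4, Tal1 held 3.17 CPM in flox against 0.411 and 0.633 CPM in the clones, 1 of 3 genes with at least 1 CPM (4.43% of all genes were at least 2-fold lower in both clones). Marker sums differed that day as well. Endothelium held 338 CPM in flox and 97.8 to 103 CPM in KI, primitive endoderm 299 against 124 to 127, and heart 82.6 against 21.0 to 22.1. Pluripotent markers were higher in KI (1263 to 1315 against 689 CPM). The part of these cell types in Tal1 was not tested. Tal1 in flox had stood at 0.159 CPM on day 0. Epor also rose by day 4, to 9.24 CPM in flox and 5.35 and 4.66 CPM in KI, from 0.370, 0.509 and 0.504 CPM on day 0. At day 0, Nfe2 held 1.80 CPM in flox against 0.339 and 0.294 CPM in KI, at least 2-fold lower in both clones, as were 2.50% of all genes. It was the only one of the 9 to reach 1 CPM that day. Averaged over the 3 days with day as a factor, edgeR called 0 of the 9 genes between the genotypes (0.730% of all genes), with 2 of 9 at an unadjusted p under 0.05. DESeq2 called 1, Hbb-bh1, at an adjusted p of 0.044. The globins were under 1 CPM on days 0 and 4, so for them this average rests mostly on day 10, with 1 flox library. The KI clones recur on each day and were fitted as separate libraries.

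Between days the 2 KI clones allowed a test. Hemgn did not pass the filter on low counts. From day 0 to day 4, 1 of 8 tested genes was called (50.3% of all genes, 26.5% higher), Epor, which rose by 3.19 on the log2 scale (SE 0.271, edgeR adjusted p = 7.84e-05). From day 4 to day 10, 6 of 8 were called, all higher (73.3% of all genes, 36.7% higher). Hbb-bh1 rose by 9.59 (SE 0.388, adjusted p = 3.69e-06), Hbb-y by 8.82 (SE 0.336, 2.78e-06) and Hba-x by 8.21 (SE 0.284, 1.33e-06). At day 4 the globins stood at or under 0.411 CPM in KI, with Hbb-bh1 at 0 in clone 48. The sizes of these rises therefore depend on the prior count. Nfe2 rose by 3.60 (SE 0.397, 0.000127), Tal1 by 3.58 (SE 0.318, 4.18e-05) and Alas2 by 3.16 (SE 0.316, 7.64e-05).

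**Figure D4:**
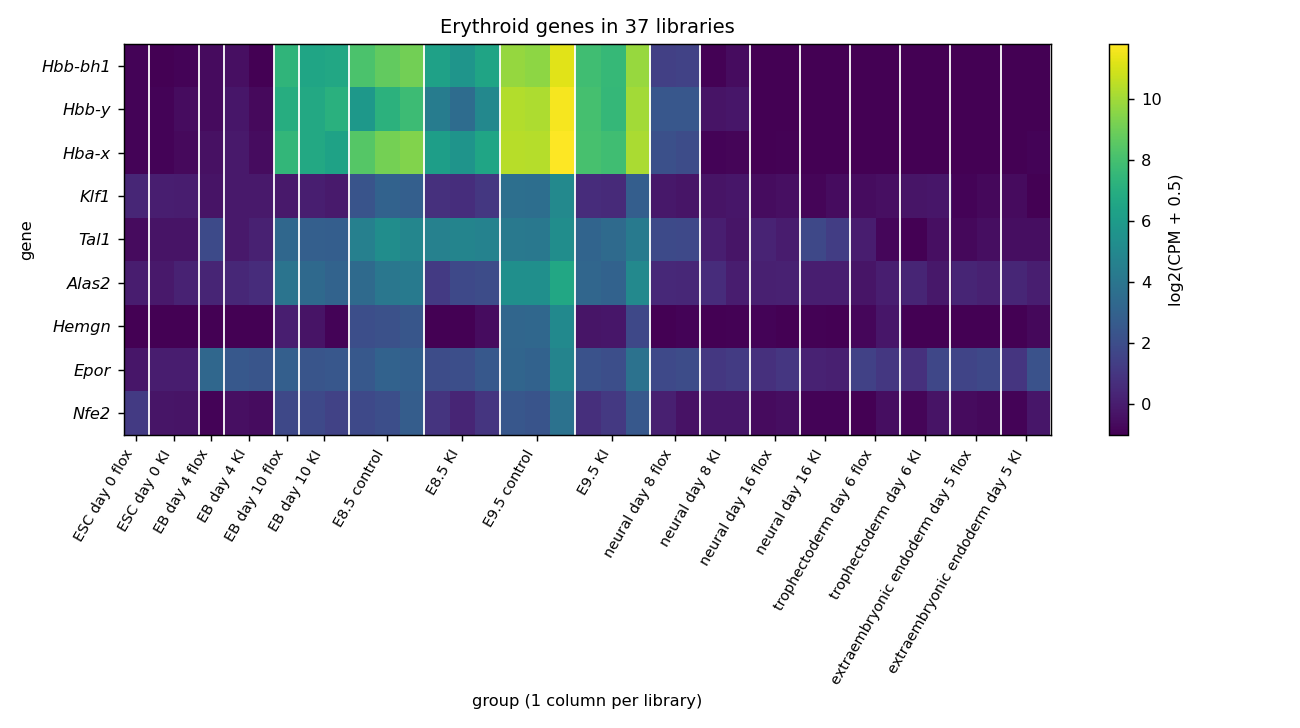
Level of the 9 genes (vertical) in all 37 libraries (horizontal, in 18 groups), coloured by log2 of CPM + 0.5. The globins are bright in embryos and in EBs of day 10 and at the floor in stem cells, trophectoderm and extraembryonic endoderm. Klf1 passes 1 CPM in 11 of the 12 embryos and in no culture.

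Neural cultures held traces of the same RNAs. At day 8, Hbb-y held 5.05 and 5.14 CPM in the flox libraries and 0.299 and 0.348 CPM in KI clones 27 and 48. Hba-x held 3.85 and 3.40 CPM against 0.0459 and 0.0614 CPM, and Hbb-bh1 2.18 and 2.38 CPM against 0.0230 and 0.164 CPM. The genotypes did not overlap for any globin. KI values of Hba-x rest on so few reads (2 and 3) that a fitted change depends on the prior count. The same holds for Hbb-bh1, whose value in clone 27 lay under the 0.0689 CPM that 3 reads equal there. Tal1 held 3.15 and 3.01 CPM in flox and 0.551 and 0.327 CPM in KI, and Epor 3.06 and 3.46 CPM against 1.58 and 1.84 CPM.

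Of 8 tested genes (Hemgn did not pass the filter on low counts) 5 were called at day 8, all lower in KI (19.5% of all genes, 13.2% lower). Klf1, Alas2 and Nfe2 were not called (log2 fold changes -0.03, -0.13 and -0.23, edgeR adjusted p = 0.974, 0.84 and 0.786). Among the called genes log2 fold changes were -5.96 for Hba-x (SE 0.378, edgeR adjusted p = 1.3e-06), -4.49 for Hbb-bh1 (SE 0.444, 5.47e-05), -3.93 for Hbb-y (SE 0.255, 1.59e-06) and -2.79 for Tal1 (SE 0.289, 2.55e-05). Epor fell by 0.89 (SE 0.199, adjusted p = 0.00683), a call lost without the second flox library (0.0891) or clone 27 (0.0603). Endothelial markers moved with them: 12 of 12 were called lower (median -2.33), with sums of 174 to 175 CPM in flox and 37.8 to 45.5 CPM in KI. Other lists fell as well, with 6 of 7 primitive endoderm (median -1.64) and 3 of 6 heart markers (median -1.42) called lower. Of 9 yolk sac endoderm markers 4 were lower and 1 higher, and of 7 neural markers 2 were lower and 2 higher. The part of these cell types in the lower globin and Tal1 RNA was not tested. The 2 flox libraries of day 8 differed less than any other replicate pair (their chi-square over its degrees of freedom was 1.5, and 2.76 to 54.83 elsewhere), so their spread may be technical.

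By day 16 RNA of the embryonic globins Hba-x, Hbb-bh1 and Hbb-y was at 0 or 1 read and the order of Tal1 had turned. Tal1 held 0.727 and 0.487 CPM in flox and 2.91 and 2.04 CPM in KI clones 27 and 48, a rise of 2.19 (SE 0.272, edgeR adjusted p = 5.51e-05). Epor held 1.20 and 1.56 CPM in flox and 0.666 and 0.585 CPM in KI, and fell by 0.93 (SE 0.239, adjusted p = 0.00753), a call lost without the second flox library (0.0538) or clone 48 (0.0501). Those were 2 of 7 tested genes, against 46.9% of all genes (27.1% higher and 19.7% lower). Hbb-bh1 showed no fitted change and is not counted, and Hemgn did not pass the filter. The library of clone 27 also held adult globins, Hba-a1 at 1.91 CPM (103 reads) and Hbb-bs at 1.54 CPM (83 reads), which lay at or under 0.0727 CPM in the other 3.

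Trophectoderm (from an inducible CDX2 gene and doxycycline) and extraembryonic endoderm (from retinoic acid and activin A) do not form blood. Hbb-bh1 and Hbb-y had 0 reads in all 8 libraries of these cultures, and Hba-x had 1 read in 1 of them. Epor held 2.26 and 1.57 CPM in flox and 1.24 and 2.83 CPM in KI trophectoderm, and 2.57 and 2.91 against 1.45 and 4.24 CPM in extraembryonic endoderm, so the genotypes overlapped in both. Alas2 and Epor alone passed the filter on low counts, and 0 of these 2 were called in either culture by edgeR (0 at an unadjusted p under 0.05, 0 by DESeq2), against 50.9% and 35.5% of all genes.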

How the data were processed

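The authors deposited 1 table per RNA library that gives counts of reads and RPKM values of 29082 transcripts, per the file headers. Poly(A) RNA was used, per the labels' protocols. The submitters' processing notes name STAR, Bowtie2 and mm9. Which tool counted reads and whether strand was used are not given in the sources used here, so antisense partners cannot be told apart. Of the transcripts, 28436 matched a gene symbol, and the transcript with the most reads per gene was used (median 71.8% of reads kept). CPM is counts-per-million of gene-level reads. The deposited RPKM values served only to compare genes.

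The counts were tested with edgeR 4.0.16 in R 4.3.3 (minimum count 10, TMM, quasi-likelihood, Benjamini-Hochberg adjustment, 12 comparisons), and DESeq2 1.42.0 was an alternative. The tests were also run on simulated counts with known changes. Those held no differences between sets, the same spread for every gene and changes in well-read genes only. They therefore do not check the tests for genes of few reads or for set differences. Embryos were fitted together, as were neural libraries, the EB course and the extraembryonic cultures. KI and control embryos of 1 set (a shared number in the title) at E8.5 deviated together (correlations 0.344, 0.399 and 0.181), which is taken from the data since no label explains the number. At E9.5 same-set correlations ran from -0.004 to 0.216. The members and lists were chosen with earlier results of these data known. All 9 members are named, and of each list up to 3 called genes with the largest change. Ahsp, Cd68 and Hbb-b1 were not analysed here.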

Additional observations from a re-analysis of the deposited data

Results flagged for a closer look

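The KI effect differed between E9.5 and E8.5 for 5 genes of the red cell lists, by the edgeR interaction test with Benjamini-Hochberg adjustment. They were 2 of 13 haem synthesis genes, 1 of 10 further red cell genes and 2 of 9 genes of erythropoietin and KIT signalling, with 0 called in the lists of other globins, iron uptake, membrane and regulators, while 6.63% of all genes were called. The log2 difference (E9.5 minus E8.5) was -0.61 for Alad (SE 0.164, adjusted p = 0.0337), -0.53 for Urod (SE 0.141, 0.0284) and -0.36 for Prdx2 (SE 0.0913, 0.0215). It was 0.45 for Kit (SE 0.108, 0.0158) and 0.56 for Stat5b (SE 0.16, 0.0406). Among the 9 primitive erythroid genes the test called Tal1 alone, and only with the set as a block (-0.75, SE 0.169, adjusted p = 0.00828, against 0.511 without it). With that block 1547 of all 15436 genes were called, so 1 of 9 is close to the share over all genes. Tal1 was also lower in KI neural cultures at day 8 and higher at day 16, by 2.19 on the log2 scale (SE 0.272, edgeR adjusted p = 5.51e-05). The difference between those days was not tested.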

How the results depend on the processing

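Alternatives were counted over the 9 genes. At E8.5, where 1 was called, DESeq2 called 6, a fit of the stage alone 6 and the replicate block (set) 8. No filter on low counts, leaving out any 1 embryo (0 to 0) and leaving out both embryos of set B (added after seeing the data) gave 0. At E9.5, where 2 were called, DESeq2 called 6, the replicate block 9, a fit of the stage alone 0, the embryos of set D alone (added after seeing the data) 8, and leaving out 1 embryo 1 to 9. Over all genes, DESeq2 called 1227, the stage alone 848, the block 1304 and the usual fit 843 at E8.5. At E9.5 these were 4929, 4384, 5284 and 4560, and 3358 for set D alone. The block at E9.5 called 14 of 14 membrane, 11 of 13 haem, 9 of 10 further red cell, 4 of 6 iron and 4 of 13 regulator genes lower, and 5 of 10 yolk sac endoderm genes higher. Between stages in controls (1 called), total counts gave 2, DESeq2 3 and leaving out 1 embryo 0 to 1, and in KI (4 called) leaving out 1 gave 1 to 4. The interaction (0) gave 1 with the block. In the EB course (0) DESeq2 gave 1, and at neural day 16 (2) leaving out 1 library gave 1 to 2. There the lone library left in a group is assumed to vary like the others. The Hbb-y share at E8.5 (KI minus control) ran from -5.74 to 0.40 points on leaving out 1 embryo and turned positive, 0.40, without the control of set C. Of the fitted values of single genes 393 kept direction and side of the threshold, 43 passed it newly, 29 no longer did, and 0 reversed. The clone block in the EB course changed no call. The cause of these shifts was not tested.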
